A study of Mus musculus with 2 samples.

Results

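The Notch pathway genes described here are 48 genes in 9 roles: Rbpj, the receptors, their ligands, the proteases that cleave the receptors, the enzymes that add sugars to them, the ubiquitin ligases of the ligands, the coactivators and corepressors that bind RBPJ, and the proteins that move and degrade the receptors. They were chosen by name, and a gene was included where a probe on both arrays carried an accession that resolved to it. The 48 genes had 71 probes among 20887 named genes on the array. RNA came from TCRαβ+CD8αα+ intraepithelial lymphocytes (IELs), T cells that lie between the epithelial cells of the small intestine, sorted as TCRγδ- CD4- CD8β- cells. The mice were on a C57BL/6 background, males and females pooled, 8 to 12 weeks old, and cells from several isolations were combined into 1 RNA sample for each genotype. One genotype was Rbpjf/f, labelled Control, with floxed Rbpj alleles and no Cre named in its label. In the other, CD4-Cre Rbpjf/f, labelled RFF4, the same alleles were combined with a Cre driven by Cd4 regulatory sequence, which is active from the thymus onward in T cells of every αβ lineage. The study's text describes control mice that carried CD4-Cre with wild-type Rbpj, so the labels and the text differ on what both genotypes share. There was 1 array for each genotype, so no difference below has a replicate check or a p-value, and the measurements compare these 2 samples.

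Notch receptors are single-pass membrane proteins that bind Delta-like or Jagged ligands on a neighbouring cell. Binding lets ADAM metalloproteases and then γ-secretase cut the receptor, and the freed intracellular domain enters the nucleus, where it joins the DNA-binding protein RBPJ and a Mastermind-like coactivator. Without that domain RBPJ recruits corepressors to the same genes. In T cells the pathway is known for commitment to the T lineage in the thymus and for guiding effector fates afterwards.

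RBPJ binds DNA at sequences whose core is TGGGAA, often preceded by G. The promoters of the members were searched on both strands for the letters GTGGGAA, from 250 bases before to 50 bases after each RefSeq start site (build GRCm38.p6). Windows were found for 40 of the 48 members, 54 in all, and 4 of them (7.41%) held the letters, against 6.38% of all 32851 promoter windows. The shorter TGGGAA, which every GTGGGAA contains, was in 24.1% of the member windows and in 25.6% of all windows, so both shares lay close to those of all promoters. The 4 members with GTGGGAA were Psen2, Aph1a, Lfng and Spen, and in Aph1a the letters ran across the start site. The other 3 promoters are printed over the 250 bases before the start site, with the match in capitals, followed by those of Notch1 and Jag2, the members with the largest difference in each direction, which hold no match in this window. All are written 5′ to 3′ on the strand of the gene.
Psen2, chr1:180245951-180246200, minus strand: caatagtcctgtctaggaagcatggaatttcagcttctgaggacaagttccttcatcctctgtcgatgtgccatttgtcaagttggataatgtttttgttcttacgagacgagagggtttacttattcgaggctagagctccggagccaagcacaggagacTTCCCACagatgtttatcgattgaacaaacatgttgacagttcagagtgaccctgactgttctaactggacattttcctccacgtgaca
Lfng, chr5:140607091-140607340, plus strand: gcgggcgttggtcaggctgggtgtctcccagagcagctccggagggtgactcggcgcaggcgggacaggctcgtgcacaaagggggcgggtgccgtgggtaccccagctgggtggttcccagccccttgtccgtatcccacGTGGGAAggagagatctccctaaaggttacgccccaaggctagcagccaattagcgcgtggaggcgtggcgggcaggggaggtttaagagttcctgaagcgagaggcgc
Spen, chr4:141538598-141538847, minus strand: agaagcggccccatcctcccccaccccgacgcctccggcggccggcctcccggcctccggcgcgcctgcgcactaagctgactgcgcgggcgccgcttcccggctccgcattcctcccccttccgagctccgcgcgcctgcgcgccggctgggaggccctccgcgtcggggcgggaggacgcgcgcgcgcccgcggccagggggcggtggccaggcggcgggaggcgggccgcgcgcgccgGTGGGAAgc
Notch1, chr2:26503823-26504072, minus strand: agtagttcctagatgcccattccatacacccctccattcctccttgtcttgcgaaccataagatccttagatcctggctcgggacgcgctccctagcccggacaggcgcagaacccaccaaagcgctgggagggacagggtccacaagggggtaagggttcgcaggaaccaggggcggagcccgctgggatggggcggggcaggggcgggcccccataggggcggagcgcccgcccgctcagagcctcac
Jag2, chr12:112929496-112929745, minus strand: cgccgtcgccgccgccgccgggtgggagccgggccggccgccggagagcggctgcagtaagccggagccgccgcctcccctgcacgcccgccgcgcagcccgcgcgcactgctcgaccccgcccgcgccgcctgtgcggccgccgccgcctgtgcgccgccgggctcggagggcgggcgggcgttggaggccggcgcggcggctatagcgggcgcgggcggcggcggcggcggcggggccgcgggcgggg
In Psen2 the capitals stand for GTGGGAA read on the opposite strand, 89 bases before the start site, while in Lfng and Spen the match lay on the gene's strand, 109 and 9 bases before it. A match is a description of the letters and not a bound site.

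Levels below are log2 signals relative to the 75th percentile of the array's own gene probes, so that 0 is that percentile, and a difference is the level on the array labelled RFF4 minus the level on the Control array. A probe counted as measured where at least 50% of its spots were well above background by the scanner software. Of the 48 members, 45 were measured on both arrays. Jag2 was measured in Control alone and has a bound, Dll4 was measured in Control but its bound was under 1-fold, and Notch3 was not well above background on either array, which leaves 46 members with a difference. On the Control array 57.2% of gene spots were well above background and on the array labelled RFF4 49.7%, and no spot was saturated. Repeat spots of 257 probes printed 10 times on each array gave a technical SD of the log2 difference of 0.245 for the dimmest of 4 classes of signal and 0.0611 for the brightest, which covers error within these arrays and not the spread between mice.

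Most members differed little between the arrays. Of the 46, 39 were within 2-fold, 4 were more than 2-fold lower on the array labelled RFF4 (Jag2, Spen, Numbl and Dtx3), and 3 were more than 2-fold higher (Notch1, Dll3 and Maml3). Over all 13513 genes with a difference, 5.05% were lower and 12.3% higher by that much, beside 8.70% and 6.52% of the members. In either direction 15.2% of the members and 17.4% of all genes passed 2-fold, so the share of members past 2-fold was near that of the array as a whole and is not a result about the members. No member passed 4-fold, which 0.585% of genes did downward and 1.85% upward. The median difference of the members was -0.14, with quartiles of -0.45 and 0.31, and that of all genes was -0.01, with quartiles of -0.37 and 0.44. Counted by sign alone, 26 members (56.5%) were lower, as were 51.1% of all genes.

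**Figure D1:**
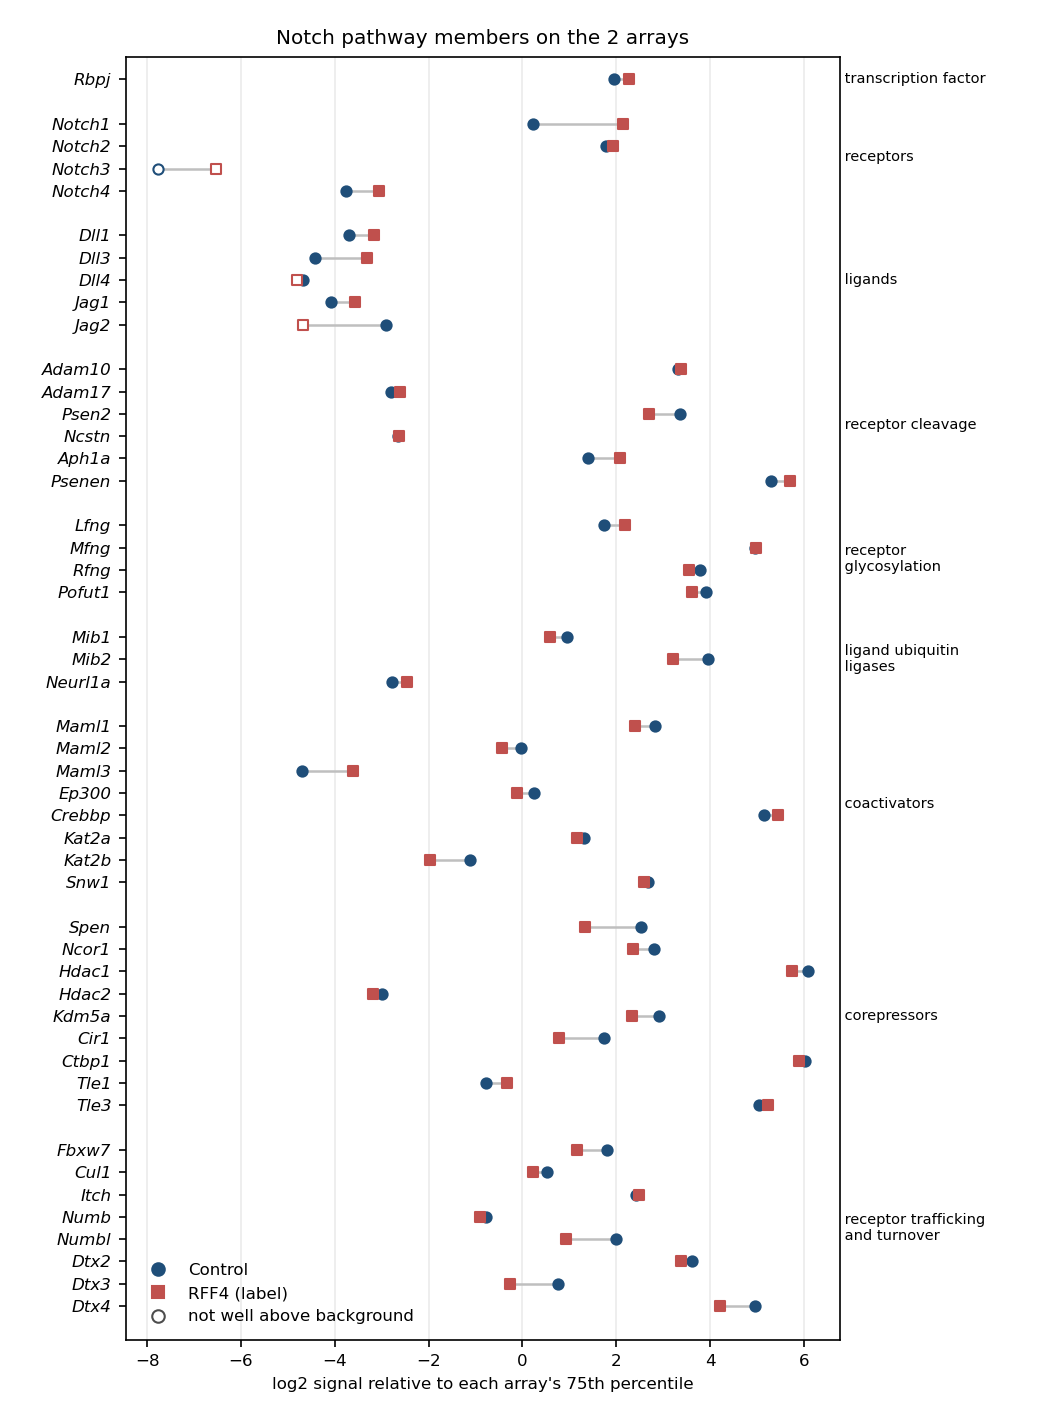
Level of each member on the Control array (circles) and the array labelled RFF4 (squares), as log2 signal relative to each array's 75th percentile, grouped by role; open symbols were not well above background. Only the 2 symbols of 1 row can be compared, since probes differ in efficiency; Notch1 is furthest to the right of its Control circle, at 2.14 against 0.23, and Jag2 furthest to the left among members measured in Control.

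Every direction in the text is relative to the 75th percentile of each array. Before any scaling, the 8 spike-in probes, which report RNA added in a known amount, differed by -0.05 between the arrays, while the 75th percentile itself was 8.99 in Control and 7.82 in the array labelled RFF4 (log2 signal). Setting the spike-ins equal would move every gene by -1.12, and the median of all genes to -1.10. Under that scaling 46 of 47 members were lower on their brightest probe and only Notch1 was higher, as were 9.98% of all genes. Scaling on the array median would move every gene by -0.17. Each genotype gave 150 ng of RNA, and the cause of the gap between the arrays against the spike-ins was not tested. For a single gene in a bulk sample of this kind, fewer cells of a type and less of its RNA per cell cannot be told apart.

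Rbpj encodes the DNA-binding protein that the Cre was designed to delete. Its brighter probe was at 1.96 in Control and at 2.28 in the array labelled RFF4, a difference of 0.32. The second probe was at -1.44 and -0.62, a difference of 0.82. Neither probe was lower in the array labelled RFF4 under this scaling, while with the spike-ins set equal the brighter probe was lower, at -0.80. The position of these probes relative to the floxed exons is not stated in the sources used here, and a probe outside the deleted segment would read a truncated transcript as well as a full one, so the Rbpj signals by themselves check neither the deletion nor the label.

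On the brightest probes, a receptor had the largest difference of all members. Notch1, the main receptor of T cell progenitors, was at 0.23 in Control and at 2.14 in the array labelled RFF4, 3.75-fold higher. Its unscaled signal was 599 in Control and 999 in the array labelled RFF4, whereas each of the 46 other members measured on at least 1 array had a lower unscaled signal in the array labelled RFF4 on its brightest probe. The second Notch1 probe, much dimmer, was at -3.20 and -2.98, a difference of 0.22, so the 2 probes of this gene were 1.69 log2 units apart. Unscaled, this second probe read lower in the array labelled RFF4, 28.7 against 55.5 in Control. A Tle1 probe that was not its brightest read higher there, 210 against 171. Notch2, a receptor of marginal zone B cells and of some T cells, was at 1.79 and 1.92, and its dimmer probe differed by -0.10. Notch4, best known from blood vessels, was at -3.77 and -3.05, both dim, a difference of 0.72. Notch3, also a receptor of thymocytes, gave no difference. The 3 measured receptors were all higher on their brightest probe, with a median of 0.72. With scaling on the median Notch2 was at -0.04, and with the spike-ins set equal both Notch2 and Notch4 were lower.

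The ligands were dim on both arrays, and only Dll3 and Jag2 passed 2-fold. Jag2, a Jagged ligand, was at -2.92 in Control, and its probe was not well above background in the array labelled RFF4, where it read -4.68. It was at least 2.60-fold lower there, the largest difference downward among the members, from unscaled signals of 67.5 and 8.81. Jag1, the other Jagged ligand, was at -4.09 and -3.56. Dll1, the ligand that drives marginal zone B cells through Notch2, was at -3.69 and -3.17, and since its probe was printed 10 times the spots can be set beside each other. In Control 10 spots ran from -3.86 to -3.50 with a median of -3.68, and in the array labelled RFF4 the 8 spots left ran from -3.37 to -2.85 with a median of -3.19. The spots of the 2 arrays did not overlap. Dll3, a divergent ligand that acts within the cell, was at -4.42 and -3.31, 2.17-fold higher, while its second probe was not well above background on either array. Dll4, the ligand of the thymic epithelium, was at -4.67 in Control and not well above background in the array labelled RFF4, at -4.81, and has no difference. Of the 4 ligands with a difference, 3 were higher and 1 lower, and with the spike-ins set equal all 5 were lower.

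Other cell types carry Notch ligands and receptors too, and their markers moved between the arrays. All 12 epithelial markers were higher in the array labelled RFF4, by 0.31 (Cdh1) to 1.89 (Apoa1) on the log2 scale, and 10 of them by more than 2-fold, although 3 were lower with the spike-ins set equal. Their summed level (linear signal relative to the 75th percentile) was 122 in Control and 354 in the array labelled RFF4. All 5 measured Paneth and goblet cell markers were higher by more than 2-fold, and still higher with the spike-ins set equal, led by Spink4 at levels of 3.58 and 5.58, with summed levels of 80.1 and 289. Of 13 macrophage and dendritic cell markers 12 were measured and all 12 were higher. Of these, 1 was lower with quantile normalization, 1 with normexp and 3 with the spike-ins set equal. Cx3cr1 led them with a difference of 3.57, from a dim -4.68 in Control, and Mrc1 was not well above background on either array. Their summed levels were 76.3 and 170. In Control that sum came mostly from Itgax at 5.52 and Itgam at 4.32, which differed by 0.20 and 0.92. Of the B and plasma cell markers, Ms4a1 and Jchain were higher by 1.79 and 1.68, also with the spike-ins set equal, Cd79b differed by -0.26, and Cd79a and Pax5 were not well above background on either array. Among the 7 markers of endothelium and stroma Cdh5, Tek, Pdgfra and Pdgfrb were not well above background. Kdr differed by 1.33, Pecam1 by -1.03 and Col1a1 by -0.16, so 1 measured marker was higher and 2 were lower. The labelled cells themselves carried their defining genes on both arrays: 12 genes typical of CD8αα+ IELs, among them Cd3e, Cd8a and Gzmb, were measured on both, with a median difference of 0.22, and Gzma alone differed by more than 2-fold (1.02). That median turned to -0.22 with quantile normalization, to -0.10 with cyclic loess and to -0.91 with the spike-ins set equal, where all 12 were lower. Cd4, whose protein the sort selected against, was at 1.67 and 1.80, and Cd8b1 was at -3.52 in Control and not well above background in the array labelled RFF4. The part of these markers in the differences of Notch1, Dll3 and the other members was not tested.

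The receptor-cleaving enzymes stayed within 2-fold. Adam10, the metalloprotease that makes the ligand-dependent cut, was at 3.31 in Control and 3.37 in the array labelled RFF4. Adam17, which can cut the receptor without ligand, was at -2.81 and -2.60. These differences of 0.06 and 0.21 depended on the probe and the processing. The second Adam17 probe differed by 0.36, and with normexp Adam17 came to 0.57 and Adam10 to -0.16. In the γ-secretase complex the parts differed in direction. Psen2, a catalytic presenilin, was at 3.37 and 2.69, a difference of -0.68, whereas Aph1a, which stabilises the complex, was at 1.40 and 2.08, a difference of 0.68. Psenen, which activates the presenilin, was at 5.30 and 5.71. Ncstn, the subunit that receives the substrate, was at -2.66 and -2.63. Psen2 was thus lower while the other 5 enzyme genes were higher by 0.02 to 0.68, although 2 of those 5 were lower with median scaling and all 6 were lower with the spike-ins set equal.

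Genes that prepare the receptor or the ligand were also within 2-fold. Pofut1, which adds the O-fucose on which the Fringe enzymes build, was at 3.91 in Control and 3.61 in the array labelled RFF4. Of the 3 Fringe enzymes, Lfng was at 1.73 and 2.19, a difference of 0.46. Mfng was at 4.96 and 4.99, and Rfng at 3.78 and 3.56. Of these 4 genes 2 were lower and 2 higher, with a median of -0.09, while 3 were lower with median scaling and all 4 with the spike-ins set equal. Mib1, the ubiquitin ligase that ligands need in the signal-sending cell, was at 0.95 and 0.59. Mib2, its relative, was at 3.97 and 3.22, a difference of -0.74, which stood outside the quartiles of all genes. Neurl1a, another ligand ubiquitin ligase, was at -2.79 and -2.47 on 1 probe and differed by -0.44 on the other, so its direction depended on the probe.

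**Figure D2:**
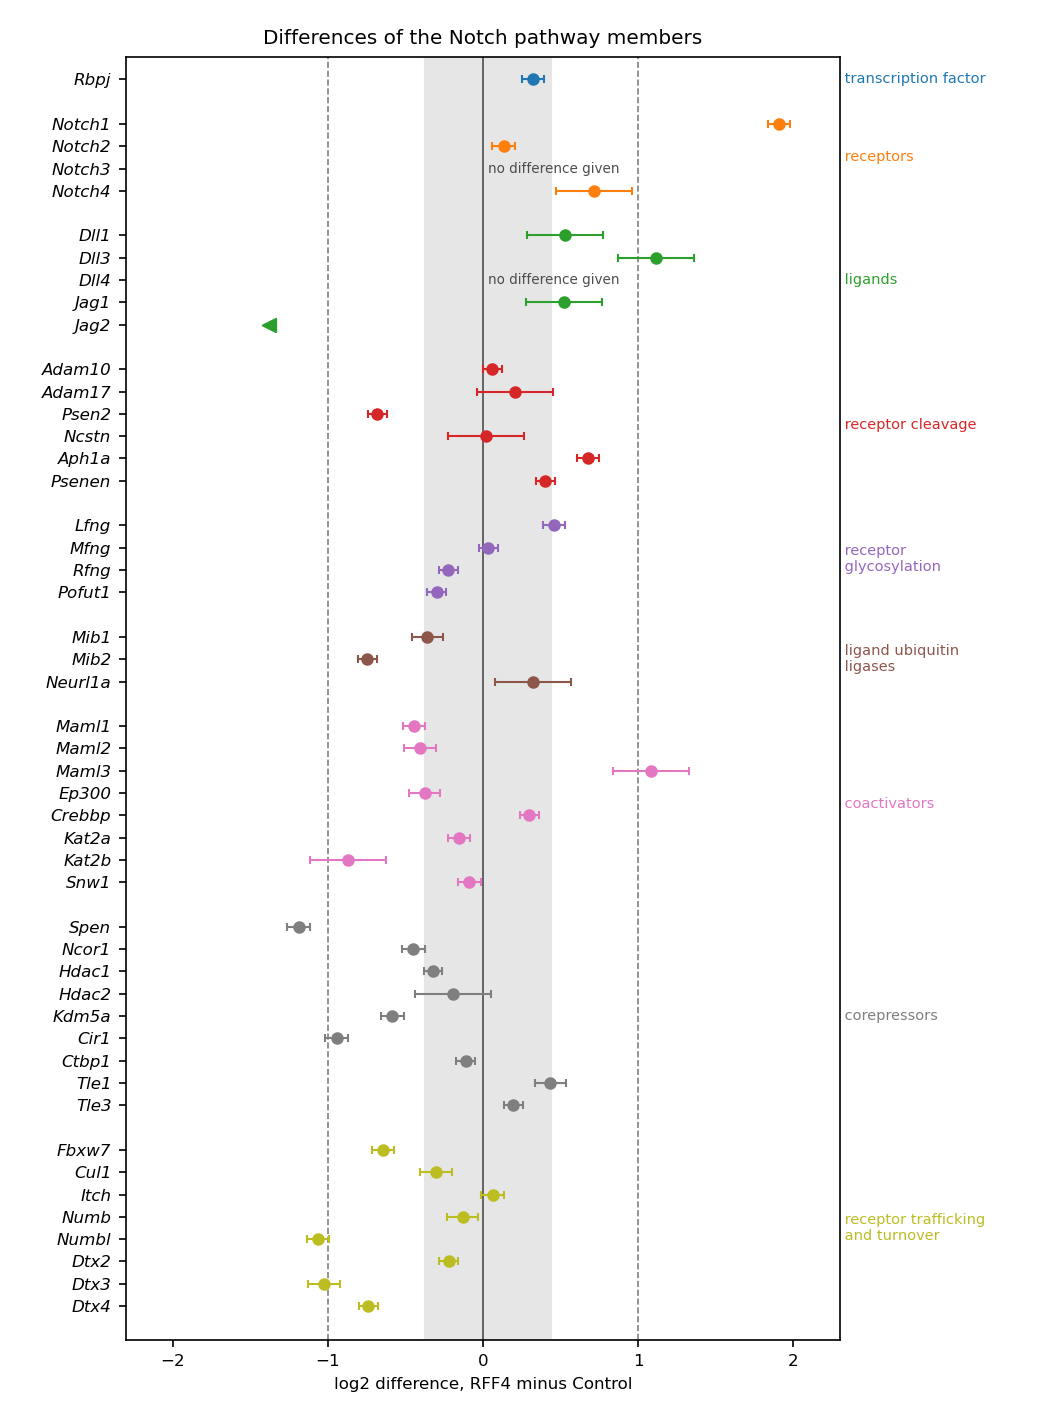
Log2 difference (RFF4 minus Control) of each member by role, with bars of 1 technical SD of its signal range; the triangle is the Jag2 bound, dashed lines mark 2-fold and the grey band the quartiles of all genes (-0.37 to 0.44). Points are brightest probes. Those of the receptors lie right of 0 and those of trafficking and turnover mostly left of it. With the spike-ins set equal every point would move by -1.12, and only Notch1 would stay right of 0.

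Of the 8 coactivators 6 were lower, beside 51.1% of all genes, with a median of -0.27. With the spike-ins set equal all 8 were lower, where only 9.98% of all genes were higher. Among the Mastermind-like proteins, which lock the Notch domain onto RBPJ, Maml1 was at 2.84 in Control and 2.39 in the array labelled RFF4. Maml2 was at -0.02 and -0.43, and its second probe differed by -0.34. Maml3 went the other way, from -4.70 to -3.62, 2.12-fold higher, at a level close to background where its 2 other probes were not well above background. The acetyltransferases recruited by Mastermind also differed in sign. Ep300 was at 0.26 and -0.12 while its close relative Crebbp was at 5.16 and 5.45. Kat2a was at 1.32 and 1.16, and Kat2b at -1.11 and -1.98, a difference of -0.87 that came to -0.36 with normexp. For Snw1, also called SKIP, which can bind both RBPJ and the Notch domain, 10 spots had a mean of 2.68 ± 0.034 (SD over spots) in Control and 2.59 ± 0.038 in the array labelled RFF4, and the spots overlapped.

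Spen had the largest difference among the corepressors on their brightest probes. Spen, also called MINT or SHARP, binds RBPJ directly in place of the Notch domain. It was at 2.53 in Control and at 1.34 in the array labelled RFF4, 2.28-fold lower, on its 1 probe. Cir1, which links RBPJ to histone deacetylases, was at 1.73 and 0.79, a difference of -0.94, but its second probe differed by 0.19. Kdm5a, a histone demethylase that RBPJ recruits to silence target genes, was at 2.91 and 2.33. Ncor1, a scaffold of the deacetylase complex, was at 2.81 and 2.36, and its 3 probes differed by -0.66 to -0.01. All 4 were lower on their brightest probe, Spen alone by more than 2-fold. Hdac1, a deacetylase, was at 6.08 and 5.76, and 1 of its 3 probes differed by 0.0025. Hdac2, its partner, was at -3.00 and -3.19, and its 10 spots on each array overlapped. Ctbp1, which joins SPEN complexes, was at 6.02 and 5.91. The Groucho-related corepressors, Tle1 and Tle3, were the 2 corepressors that were higher, although with normexp Tle3 was at -0.04 and Hdac2 turned to 0.49. Tle3 was at 5.05 and 5.25. Tle1 was at -0.77 and -0.34 on its brightest probe, and its 2 other probes differed by 1.14 and 1.47. The 9 corepressors had a median of -0.32, with 7 lower and 2 higher, beside 51.1% of all genes lower. With the spike-ins set equal all 9 were lower, where only 9.98% of all genes were higher.

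Genes of receptor trafficking and turnover had a median of -0.47, and 7 of the 8 were lower, beside 51.1% of all genes. Numbl, the relative of the endocytic Notch inhibitor Numb, was at 1.99 in Control and 0.93 in the array labelled RFF4, 2.09-fold lower. Numb itself was at -0.77 and -0.91. The difference of Numb, -0.13, was close to 1 technical SD of its signal range, 0.10. That of Numbl, -1.06, was many times the SD of its own range, 0.072. Such an SD covers error within the arrays alone, so it does not set the 2 genes apart between mice. Among the Deltex proteins, ubiquitin ligases that act on Notch in endosomes or share their RING domain, Dtx3 was at 0.76 and -0.26, 2.03-fold lower. Dtx4 was at 4.95 and 4.21, a difference of -0.74, and Dtx2 at 3.61 and 3.39. All 3 were thus lower, Dtx3 alone past 2-fold. Fbxw7, the subunit that selects the nuclear Notch domain for degradation, was at 1.81 and 1.16, and its second probe differed by -0.37. Cul1, the scaffold of the same ligase, was at 0.53 and 0.22. Itch, a ubiquitin ligase for the membrane-bound receptor, was at 2.42 and 2.48. It was the 1 gene of the 8 that was higher, by 0.06. It was lower as well with normexp or with median scaling, which moves every gene by -0.17, so that all 8 were lower.

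Where a member had several probes, they could be compared with each other. In 17 members more than 1 probe was well above background on both arrays. In 12 of these the probes were within 0.5 log2 units of each other, and in 3, Notch1, Cir1 and Tle1, they were more than 1 log2 unit apart. Probes of Notch2, Neurl1a, Hdac1 and Cir1 differed in sign. Of the 7 members past 2-fold, Jag2, Spen, Numbl and Dtx3 had 1 probe each, and in Notch1, Dll3 and Maml3 no second probe passed 2-fold while well above background. Averaged over all probes, dim ones included, the members more than 2-fold higher were Notch1, Maml3 at 1.45 and Tle1, while Dll3 was within 2-fold.

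**Figure D3:**
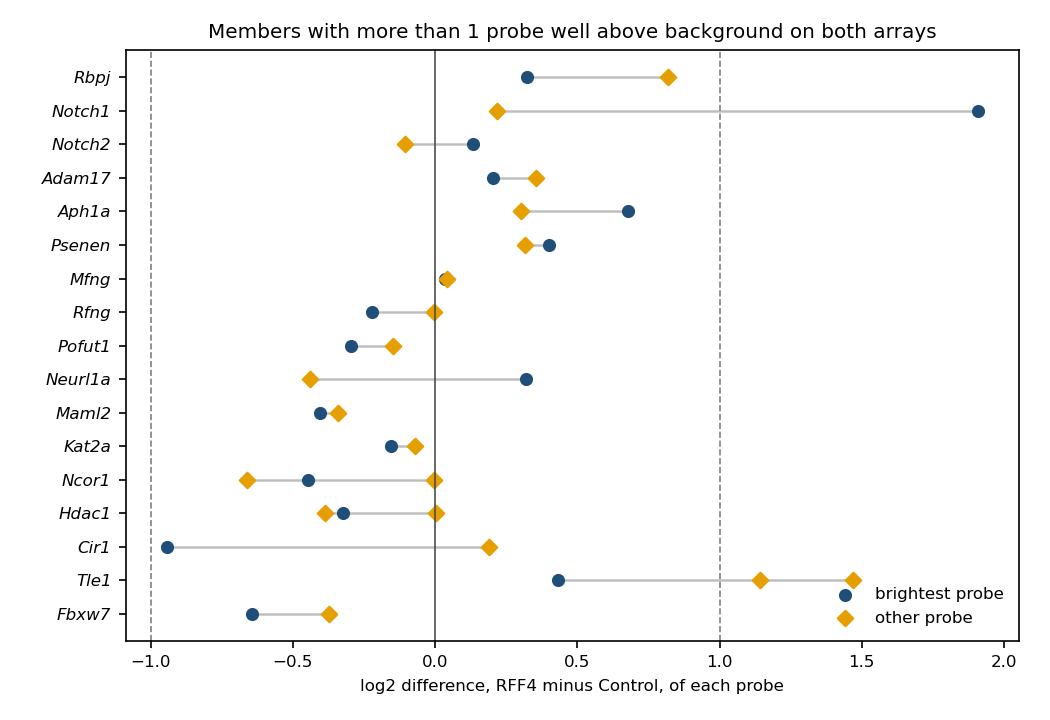
Log2 difference (RFF4 minus Control) of every probe of the 17 members with more than 1 probe well above background on both arrays; circles are the brightest probe, diamonds the others, dashed lines mark 2-fold. The 2 Notch1 probes lie at 1.91 and 0.22, and the 3 Tle1 probes at 0.43, 1.14 and 1.47.

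Differences of members also varied with their signal, as those of all genes did. Among genes measured on both arrays and ordered into 8 bins by mean signal, the dimmest bin had a median difference of 0.48, where 27.0% of genes were past 2-fold upward and 2.90% downward. The next bin had a median of 0.11, the 5 bins after it medians of -0.15 to -0.05, and the brightest 0.15. Dll3 and Maml3 lay in the dimmest bin with Notch4, Dll1, Jag1, Adam17 and Hdac2, and against its median they were higher by 0.64 and 0.60. Dll1 and Jag1 were each 0.05 above that median and Notch4 0.24 above it, while Adam17 and Hdac2 differed from it by -0.27 and -0.67, so the differences of Dll1 and Jag1 were close to those of other genes as dim. Notch1 on its brightest probe lay in the middle of the range, where 8.15% of genes were more than 2-fold higher. Spen and Numbl lay in that same bin, where 5.81% were more than 2-fold lower, and Dtx3 in a neighbouring one with 5.93%.

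**Figure D4:**
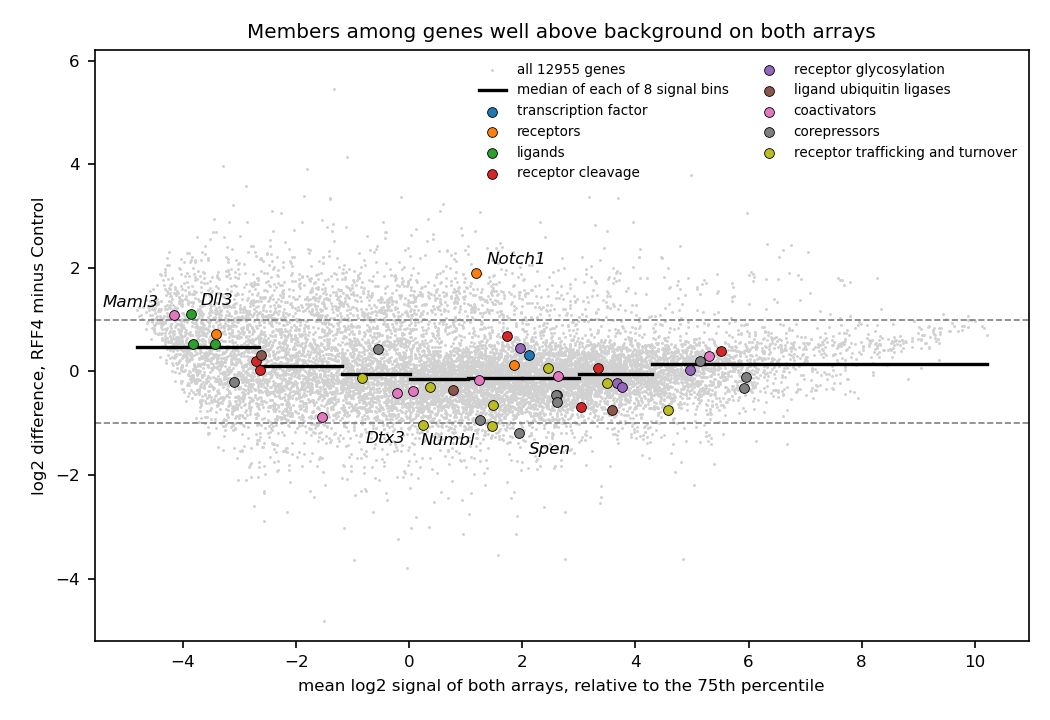
Log2 difference (RFF4 minus Control) against mean log2 signal for the 12955 genes measured on both arrays (grey) and the members (coloured by role); black bars are medians of 8 signal bins and dashed lines mark 2-fold. The median is 0.48 in the dimmest bin, where Dll3 and Maml3 lie, and -0.12 in the bin of Notch1, Spen and Numbl; with the spike-ins set equal all points would move by -1.12.

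The 7 members past 2-fold differed in how far they depended on the scaling. Leaving the spike-in scaling aside, Notch1 lay between 1.06, averaged over its probes, and 2.02, with cyclic loess, and so past 2-fold throughout, but with the spike-ins set equal it was 0.78. Spen was past 2-fold under all alternatives, from -1.11 with cyclic loess to -2.31 with the spike-ins set equal. Jag2 lay between -1.38 and -1.77 wherever it had a value, and at -2.50 with the spike-ins set equal. Numbl came to -0.96 with cyclic loess and Dtx3 to -0.84 with normexp, both within 2-fold. Dll3 came to 0.68 averaged over its probes and Maml3 to 0.89 with normexp, also within 2-fold.

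**Figure D5:**
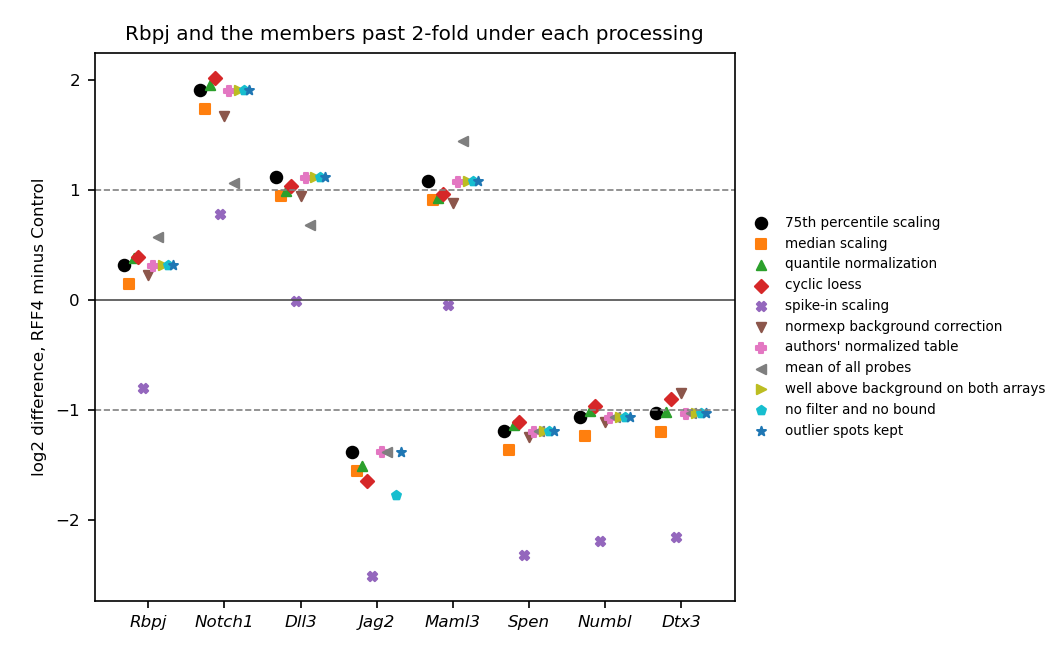
Log2 difference (RFF4 minus Control) of Rbpj and of the 7 members past 2-fold under 75th percentile scaling (black circles) and each of 10 alternatives; dashed lines mark 2-fold. Spike-in scaling, read on the brightest probes, moves each gene by about -1.12. Rbpj, Dll3 and Maml3 thus lie below 0 there, and Notch1 is the only gene drawn that is above 0 throughout.

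A wider list of pathway genes held further members of the same roles and their partners. Of 32 such genes on the array 30 were measured, 18 lower and 12 higher, with a median of -0.22, and with the spike-ins set equal 29 of 31 were lower. Past 2-fold were Dtx1, a Deltex ubiquitin ligase and classical Notch target in T cells, at -3.63, and Dvl1, a Dishevelled protein of Wnt signalling that also binds RBPJ, at -1.14, with Dvl3, its relative, at 1.52 and the corepressor Ctbp2 at 1.17. That made 13.3% past 2-fold in either direction, beside 17.4% of all genes. Dner, a Notch-binding neuronal protein, was not well above background on either array, and Rbpjl, the relative of Rbpj, had no difference. Among 15 classical Notch target genes, which include Notch1 itself, 12 were measured. Heyl, a transcriptional repressor, at -3.80 and Dtx1 were past 2-fold downward, while Ccnd1, a cyclin, at 2.03, Notch1 at 1.91, the repressor Hes1, at least 2.99-fold higher, and the cell cycle inhibitor Cdkn1a at 1.01 were past it upward. Hey2, Ptcra and Notch3 were not well above background on either array. Of the measured targets 50% were thus past 2-fold, 16.7% lower and 33.3% higher, beside 17.4%, 5.05% and 12.3% of all genes. The list is short and was chosen with earlier results of these data known. The median of the measured targets was 0.19, with 4 lower and 8 higher. With the spike-ins set equal 9 of them were lower, where only 9.98% of all genes were higher.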

How the data were processed

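RNA of sorted IELs, 150 ng for each genotype, was labelled with Cy3 and hybridised to Agilent 1-colour mouse arrays, both on 1 slide in 1 scan. The authors deposited, for each array, the spot intensities written by Agilent Feature Extraction 10.7.1.1 (per the file headers). They also deposited a table of normalized log2 values with each probe centred over the arrays, the settings of which are not given in the sources used here; it served as an alternative.

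The processed signal intensity was taken after leaving out control spots and the 102 and 131 spots marked as outliers, converted to log2, scaled to the 75th percentile of the 59305 gene spots of each array, and averaged over spots of a probe. Probe accessions were matched to RefSeq symbols, 27509 of 29150. Each gene was read from its brightest probe (mean log2 over both arrays). Where a probe was well above background on 1 array alone, the difference became a bound, in which the dim array took its own reading or, if larger, the lowest level well above background (-5.51 in Control, -4.29 in the array labelled RFF4). With 1 array per genotype no test was run; a fold of 2 was used for counts. The number of arrays limits the precision. All members are named. Of the wider pathway and target lists, genes past 2-fold and those without a difference are named, and of the markers some that lead a list or were not well above background. The members and lists were chosen with earlier results of these data known. One marker of the B and plasma cell list is not reported here. Scripts were tested on simulated data (Python 3.11.15, numpy 2.4.6, pandas 2.3.3, R 4.3.3, limma 3.58.1). Tried as alternatives were median, quantile, cyclic loess and spike-in scaling, background correction by normexp (offset 50), the deposited normalized table, the mean of all probes, 2 filters and keeping outlier spots.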

Additional observations from a re-analysis of the deposited data

How the results depend on the processing

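Under 10 alternatives 25 of the 46 members were lower in all, and 1, Notch1, was higher in all. Without the spike-in scaling 38 kept their sign (25 lower, 13 higher), but with it 45 of the 46 were lower. Counts of members past 2-fold, 4 lower and 3 higher, moved with the scaling. The count higher was 1 with median scaling, 1 with quantile normalization, 1 with normexp, 2 with cyclic loess and 0 with spike-in scaling, where 9.68%, 11.3%, 9.22%, 12.2% and 1.39% of all genes were higher by that much. The count lower was 6 with median scaling (Kat2b and Cir1 added), 2 with cyclic loess and 30 with spike-in scaling, where 7.98%, 4.84% and 56.9% of all genes were lower by that much, so the 30 are not a result about the members. The median of the members, -0.14, was -0.32 with median scaling and -1.26 with spike-in scaling. The Rbpj difference, 0.32, was 0.15 with median scaling, -0.80 with spike-in scaling and 0.57 with the mean of both probes. Dll3 and Maml3 turned to -0.0071 and -0.042 with spike-in scaling. Median and spike-in scaling move every gene by 1 amount, and the mean of probes adds the dimmer probes; the cause of the other moves was not tested. The deposited normalized values and the keeping of outlier spots left both counts of members past 2-fold as they were. With normexp and with the filter for both arrays Jag2 had no difference. Leaving out a replicate could not be done with 1 array per genotype. No paired analysis was possible because each genotype had 1 array and the labels carry no replicate numbers. Signals near background limit the ligands, Notch3, Notch4, Maml3 and Hdac2.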
